A study of Homo sapiens with 12 samples.

Results

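The fibroblast growth factor (FGF) genes described here were FGF2, FGF4, FGF8, FGF13 and FGF19 and the receptor genes FGFR1, FGFR2, FGFR3, FGFR4 and FGFRL1. They were chosen by gene name as 10 of the 58575 genes of the count table, and all 10 had a row in both deposited tables and passed the filter on low counts. RNA-Seq was measured in 12 libraries of 201B7, an established human induced pluripotent stem cell (iPSC) line labelled as skin-derived, with 3 libraries in each of 4 culture conditions harvested on Day 5. Cond 1 was the control in StemFit, a maintenance medium for iPSCs. Cond 2, labelled low nutrient, used StemFit heated at 56 °C for 30 min. Cond 3, labelled differentiation, used DMEM with 10% fetal bovine serum (FBS), non-essential amino acids and GlutaMax. Cond 4, a physical stimulus, used maintenance culture after cells had been suspended by pipetting 20 times at passage. All conditions came from this 1 line, and Y-27632, a ROCK inhibitor, was in the medium used for reseeding.

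FGF ligands bind FGF receptors together with heparan sulfate on the cell surface, and the receptor kinases then signal through the adaptor FRS2, RAS and the ERK kinases. ERK signalling switches on ETS transcription factors and also feedback inhibitors such as the Sprouty proteins and dual-specificity phosphatases. Human pluripotent cells in the primed state depend on this pathway, and FGF2 protein is a usual component of their media. The libraries measured the cells' own transcripts, not the protein supplied with the medium.

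The libraries held 16441148 to 21871503 counts, and the replicates of a condition differed by more than sampling noise. The study calls the replicates technical in one place and a triplicate experiment in another, so p-values measured only the spread between these libraries, which may be technical. All 10 pluripotency markers checked were present in every condition, with summed levels of 8608 to 8876 TPM (transcripts scaled for gene length and library size) in Cond 1, 7385 to 8469 in Cond 2, 8784 to 9512 in Cond 3 and 8440 to 8919.7 in Cond 4. The sums hid changes of single markers, of which 3 were higher and 5 lower than in Cond 1 in Cond 2, 6 higher and 3 lower in Cond 3, and none was called in Cond 4. Over all genes tested, 10.8% were higher and 10.1% lower in Cond 2, and 19.5% and 18.8% in Cond 3. TDGF1, a NODAL co-receptor, had a mean of 1299 TPM in Cond 1, 490.1 in Cond 2 and 689 in Cond 3. SOX2 went the other way, with 908, 1304 and 1263 TPM. Of 8 fibroblast markers, DCN and FAP were at 0 in the 3 libraries of Cond 1, and 4 were under 1 TPM. COL1A1 and COL1A2 were not low there, with means of 246 and 47.0 TPM. In bulk libraries, fewer cells of a type and less RNA per cell cannot be told apart.

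In the control iPSCs the receptor kinases and FGF2 had the highest levels of the 10 genes, and FGF4 and FGF8 the lowest. In TPM, the order of the mean levels in Cond 1 was FGFR1 at 248, FGFR3 at 151, FGF2 at 147, FGFR2 at 103, FGFR4 at 84.4, FGFRL1 at 25.2, FGF19 at 15.7, FGF13 at 12.9, FGF8 at 1.95 and FGF4 at 0.579. FGFR3 and FGF2 did not differ beyond the spread of their libraries, whereas the libraries of all other neighbours in this order did not overlap. The order depends on the gene lengths used for TPM, such as 20737 bases for FGF13 and 1821 for FGF19. By reads, FGF13 stood above FGF19, with 1314 to 1527 per library in Cond 1 against 132 to 181. Among 29418 genes above 0 TPM in Cond 1, FGFR1 ranked 589, FGF2 ranked 1123 and FGF4 ranked 19738. FGF4 and FGF8 rested on 6 to 52 and 8 to 57 reads per library, which left a large counting error for both, while FGFR1 had at least 15811 reads.

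**Figure D1:**
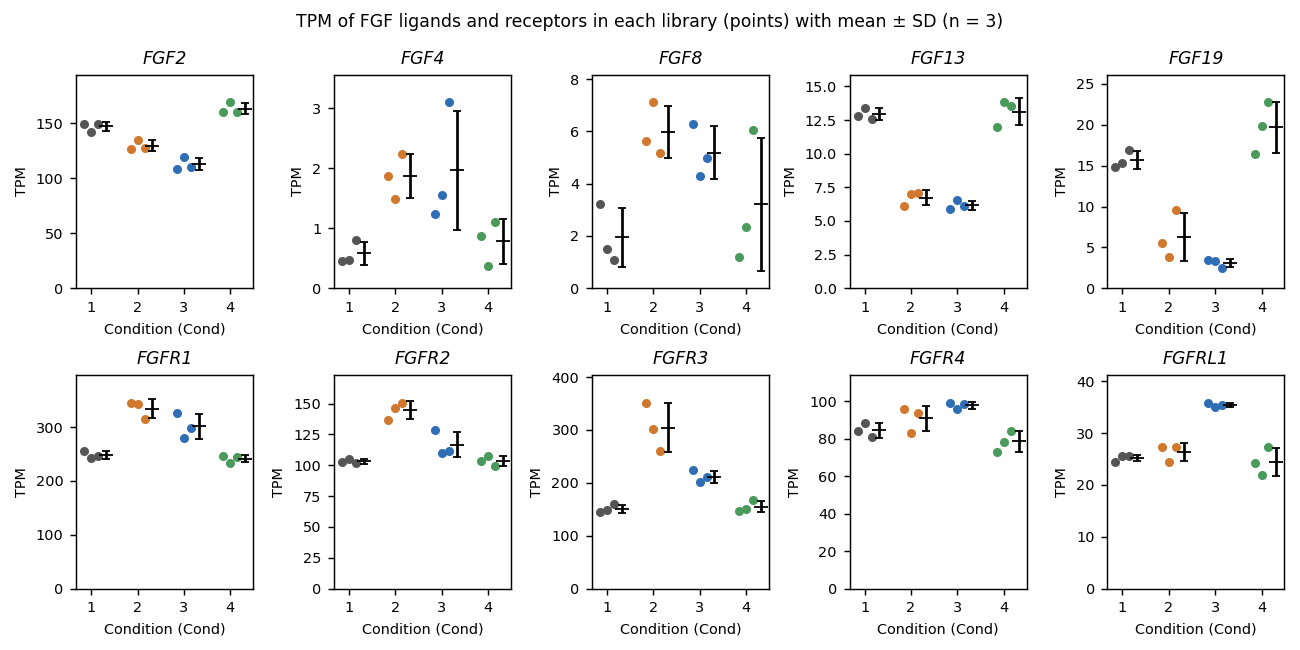
Each panel plots the TPM of 1 gene (vertical axis, from 0) in the 3 libraries of each condition (points), with the mean ± SD (n = 3) beside them. FGF19 and FGF13 sat lower in Cond 2 and Cond 3 than in Cond 1, FGFR3 sat highest in Cond 2 between 261 and 352 TPM, and Cond 4 overlapped Cond 1 in every panel but that of FGF2.

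In Cond 2 and Cond 3, FGF19, FGF13 and FGF2 were downregulated, FGF4 and FGF8 were upregulated, and the receptors that changed were all upregulated. Of the 10 genes, 8 passed an adjusted p-value under 0.05 in Cond 2 against Cond 1, 5 upregulated and 3 downregulated, where 20.9% of the 17747 genes tested passed, 10.8% as higher and 10.1% as lower. In Cond 3 all 10 passed, 7 upregulated and 3 downregulated, against 38.4% of all genes, 19.5% as higher and 18.8% as lower. A fold change above 2 in addition was reached by 4 of the 10 in each condition (FGF4, FGF8, FGF13 and FGF19), against 4.34% of all genes in Cond 2 and 8.16% in Cond 3. The 10 genes were chosen with earlier results of these data known, so their counts beside the shares of all genes are a description only. Both comparisons shared the Cond 1 libraries. Without replicate 2 of Cond 1, the 4 with a fold change above 2 in Cond 2 became 2. With limma on log2(TPM + 1), 1 of the 10, FGF19, was called with a fold above 2 in each condition. On log2(TPM + 0.1) 2 were called in each, FGF19 with FGFR3 in Cond 2 and FGF19 with FGF13 in Cond 3. There the log2 fold change in Cond 2 was 1.004 for FGFR3 and -0.93 for FGF13, so both genes lay close to the fold threshold. FGFR3 also passed it in edgeR without replicate 3 of Cond 2 (1.04). With limma at either pseudocount, 6 of the 10 rather than all were called in Cond 3.

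FGF19, a secreted endocrine ligand that signals mainly through FGFR4, fell the most of the 10. Its TPM was 14.9, 15.4 and 17.0 in the libraries of Cond 1, 5.54, 3.85 and 9.57 in Cond 2, and 3.50, 3.31 and 2.48 in Cond 3. All libraries of Cond 2 lay below those of Cond 1, and all of Cond 3 lay below those of Cond 2. By the quasi-likelihood test, FGF19 fell by 1.42 on the log2 scale in Cond 2 (edgeR adjusted p = 0.000139, standard error (SE) 0.24). In Cond 3 it fell by 2.36 (edgeR adjusted p = 2.05e-07, SE 0.26), to 19.7% of the mean TPM of Cond 1. Between 24 and 224 reads were counted on the gene in each library. The gene (ENSG00000162344) spans chr11:69698238-69704022 in GRCh38 and is read from the minus strand.

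FGF2, the ligand added to pluripotent cell media, remained the most abundant ligand transcript and fell less. Its TPM was 149.5, 142 and 149.6 in Cond 1, 127, 135 and 127 in Cond 2, and 109, 119 and 111 in Cond 3. These conditions did not overlap, and the mean was 88.2% of that of Cond 1 in Cond 2 and 76.7% in Cond 3. FGF2 fell by 0.27 on the log2 scale in Cond 2 (edgeR adjusted p = 0.000634, SE 0.053) and by 0.41 in Cond 3 (edgeR adjusted p = 1.92e-06, SE 0.053). FGF2 (ENSG00000138685) spans chr4:122826682-122898236 and is read from the plus strand. NUDT6 overlaps it on the opposite strand with 77 to 165 reads, 2.16% of the FGF2 reads, and was not called in any comparison. Whether the counting used strand was not given in the sources used here.

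FGF4, a ligand of early embryonic cells, and FGF8, a ligand of gastrulation and of early brain and limb patterning, were upregulated from low levels. FGF4 stood at 0.459, 0.469 and 0.809 TPM in Cond 1, at 1.88, 1.49 and 2.23 in Cond 2, and at 1.24, 1.56 and 3.10 in Cond 3. For FGF8 the values were 3.23, 1.51 and 1.09 TPM in Cond 1, 5.64, 7.11 and 5.18 in Cond 2, and 6.28, 4.30 and 4.97 in Cond 3. Neither gene's libraries of Cond 2 or Cond 3 overlapped those of Cond 1, and Cond 2 and Cond 3 overlapped each other for both.

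The log2 fold change of FGF4 was 1.57 in Cond 2 (edgeR adjusted p = 0.0228, SE 0.49) and 1.70 in Cond 3 (edgeR adjusted p = 0.00744, SE 0.48). That of FGF8 was 1.53 in Cond 2 (edgeR adjusted p = 0.0216, SE 0.47) and 1.38 in Cond 3 (edgeR adjusted p = 0.0231, SE 0.47). These 4 calls were the weakest among the ligands, since each was lost with limma on log2 TPM and with some single libraries left out, while the direction held. For FGF4 the adjusted p from edgeR in Cond 2 became 0.0890 without replicate 1 of Cond 1, 0.0723 without its replicate 2 and 0.0668 without replicate 3 of Cond 2. In Cond 3 it became 0.0816 without replicate 3 of Cond 3, and over all alternatives the adjusted p of FGF4 ran from 0.0108 to 0.0890 in Cond 2 and from 0.00306 to 0.0816 in Cond 3. For FGF8 in Cond 2 it became 0.0773 without replicate 2 of Cond 1, 0.108 without its replicate 3 and 0.0812 without replicate 2 of Cond 2. For FGF8 in Cond 3 the corresponding values were 0.0781 and 0.112 without the same Cond 1 libraries and 0.0857 without replicate 1 of Cond 3. Over all alternatives the adjusted p of FGF8 ran from 0.00301 to 0.108 in Cond 2 and from 0.00576 to 0.112 in Cond 3.

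FGF4 (ENSG00000075388) spans chr11:69771022-69775341 and is read from the minus strand. A gap of 66999 bases separates it from FGF19, and the pair moved in opposite directions. FGF3, the next ligand gene beyond FGF4 after a gap of 34626 bases, had 0 to 6 reads per library and was not tested. CCND1, the cyclin D1 gene on the other side of FGF19, had a log2 fold change of 0.22 in Cond 2 (edgeR adjusted p = 0.00292) and of -0.11 in Cond 3 (edgeR adjusted p = 0.0941). LTO1, which overlaps CCND1 and lies between it and FGF19, was not called in Cond 2 (-0.081, edgeR adjusted p = 0.620) or Cond 3 (-0.23, edgeR adjusted p = 0.0612). FGF8 (ENSG00000107831) spans chr10:101770109-101780371 and is read from the minus strand.

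FGF13 belongs to the FGF homologous factors, which stay inside the cell, do not act through FGF receptors and bind sodium channels and microtubules. It was downregulated to a similar level in both media. Its TPM was 12.8, 13.4 and 12.6 in Cond 1, 6.11, 7.03 and 7.09 in Cond 2, and 5.86, 6.54 and 6.11 in Cond 3. Libraries of Cond 2 and Cond 3 overlapped each other and lay far below those of Cond 1. FGF13 fell by 1.03 on the log2 scale in Cond 2 (edgeR adjusted p = 9.33e-10, SE 0.078) and by 1.09 in Cond 3 (edgeR adjusted p = 2.05e-10, SE 0.078). FGF12, the only other homologous factor tested, had 1.81 to 2.17 TPM on average and was not called in any comparison. FGF13 (ENSG00000129682) spans chrX:138614727-139222777 and is read from the minus strand. The antisense gene FGF13-AS1 had 54 to 87 reads, 6.77% of the FGF13 reads, and was not called.

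Promoter sequences are shown for FGFR3 and FGF13, the receptor with the widest change and the intracellular factor that fell in both media. RefSeq's promoter table on GRCh38.p14 held 6 of the 10 genes (FGF2, FGF13, FGFR2, FGFR3, FGFR4 and FGFRL1), and the windows of FGFR3 and FGF13 were the ones that met no annotated exon of GENCODE release 44. Each line gives the 250 bases before the RefSeq start, 5′ to 3′ along the gene's strand, with matches to the searched motifs in capitals. The window of FGFR3 is chr4:1793043-1793292 on the forward strand, and that of FGF13 is chrX:139205024-139205273 on the reverse strand, inside the span of longer FGF13 transcripts.
FGFR3: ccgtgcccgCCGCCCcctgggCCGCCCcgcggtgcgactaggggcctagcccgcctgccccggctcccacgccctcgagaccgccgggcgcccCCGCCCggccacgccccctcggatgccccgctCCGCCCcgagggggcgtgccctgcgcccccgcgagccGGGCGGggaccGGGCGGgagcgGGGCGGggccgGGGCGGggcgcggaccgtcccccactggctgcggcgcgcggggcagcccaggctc
FGF13: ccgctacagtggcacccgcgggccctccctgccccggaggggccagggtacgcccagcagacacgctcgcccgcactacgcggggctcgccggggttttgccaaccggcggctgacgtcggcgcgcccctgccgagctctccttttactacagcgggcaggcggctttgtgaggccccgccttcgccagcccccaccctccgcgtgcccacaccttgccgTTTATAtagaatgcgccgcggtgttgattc
The motifs searched on both strands were the TATA box TATAAA, the CCAAT box CCAAT, the GC box GGGCGG, the E-box CACGTG and the core TGATGNAA of the C/EBP-ATF response element. The FGFR3 window held the GC box 8 times and had a GC content of 86.8%, where the median over 35116 promoters was 58.0% and 42.6% of them held a GC box. The FGF13 window held TATAAA once, on the strand opposite to the gene, from 30 to 25 bases before the start, and had a GC content of 70.4%. TATAAA was in 10.7% of all promoters, CCAAT in 32.01%, CACGTG in 6.34% and TGATGNAA in 3.14%. A match is a description of the letters only.

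Among the receptors, FGFR3 rose the most, and it rose more in Cond 2 than in Cond 3. FGFR3 is a receptor kinase best known for restraining cartilage growth, and it is also expressed in neural progenitors. Its TPM was 146, 148 and 159 in Cond 1, 352, 301 and 261 in Cond 2, and 223, 201 and 210.5 in Cond 3. These conditions did not overlap. The log2 fold change was 0.93 in Cond 2 (edgeR adjusted p = 1.97e-08, SE 0.084), a fold of 1.90 with the TMM normalization, whereas the mean TPM was 202% of that of Cond 1. In Cond 3 the log2 fold change was 0.46 (edgeR adjusted p = 0.000147, SE 0.084). FGFR3 (ENSG00000068078) spans chr4:1793293-1808872 and is read from the plus strand.

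Markers of neuroectoderm were measured beside FGFR3. The summed TPM of 8 such markers was 339 to 393 in Cond 1, 569 to 761 in Cond 2, 485 to 515 in Cond 3 and 340 to 393 in Cond 4, and 5 of the 7 tested were higher in Cond 2 and 2 in Cond 3. Different genes carried these sums. HESX1 had a mean of 17.0 TPM in Cond 1, 172 in Cond 2 and 30.1 in Cond 3, and SIX3 2.39, 158 and 2.70. NES, the largest term in Cond 1, had 341, 323 and 468. The part of these markers in the receptor changes was not tested. Fibroblast markers summed to 293 to 316 TPM in Cond 1 and 204 to 254 in Cond 2. In Cond 4 they summed to 241 to 281 TPM and in Cond 3 to 539 to 576. Of 5 tested, 2 were lower in Cond 2 and 2 higher in Cond 3, where DCN and FAP were at 0. The fibroblast sums were mostly COL1A1, at a mean of 246 TPM in Cond 1, 183 in Cond 2 and 436 in Cond 3. COL1A2 had 47.0, 37.6 and 110. Mesendoderm markers summed to at most 6.05 TPM in any library, with FOXA2 at 0 in every condition. Surface ectoderm markers summed to 334 to 400 TPM in Cond 1, 247 to 288 in Cond 2, 176 to 193 in Cond 3 and 293 to 361 in Cond 4, and these sums were mostly KRT18, at a mean of 356 TPM in Cond 1, 248 in Cond 2 and 183 in Cond 3. Of the 5 tested, 3 were higher and 2 lower in Cond 2, and 1 was higher and 2 lower in Cond 3. DLX5 had a mean of 0.069 TPM in Cond 1 and 13.7 ± 11.2 in Cond 2 (SD, n = 3). GATA3 had 0.268 and 7.46 ± 4.20, and TFAP2A 0.142 and 4.25 ± 1.87 (SD, n = 3 each). GABRP went the other way, at 6.59 TPM in Cond 1, 0.293 in Cond 2 and 2.57 in Cond 3. KRT5 and KRT14 were at 0 in Cond 1 and Cond 3. Beside these marker counts, 10.8% of all genes were higher and 10.1% lower in Cond 2, and 19.5% and 18.8% in Cond 3. The 2 neuroectoderm and 2 fibroblast markers higher in Cond 3 are too few to set apart from that share.

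FGFR1, the most abundant receptor and the main receptor for FGF2 in pluripotent cells, rose modestly in both media. It had 256, 242 and 247 TPM in Cond 1, 345, 343 and 315 in Cond 2, and 327, 279.6 and 298 in Cond 3. Cond 2 and Cond 3 overlapped each other and both lay above Cond 1. The log2 fold change of FGFR1 was 0.34 in Cond 2 (edgeR adjusted p = 3.99e-05, SE 0.053) and 0.25 in Cond 3 (edgeR adjusted p = 0.000631, SE 0.053). FGFR1 (ENSG00000077782) is on chromosome 8, and overlapping genes such as LETM2 each had under 0.5% of its reads.

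FGFR2, whose splice forms separate epithelial from mesenchymal ligand binding, rose in Cond 2. It had 103, 105 and 102 TPM in Cond 1, 136, 146 and 151 in Cond 2, and 128, 110.0 and 112 in Cond 3. Cond 3 lay between Cond 1 and Cond 2 with no overlap. The log2 fold change was 0.40 in Cond 2 (edgeR adjusted p = 1.56e-05, SE 0.057). In Cond 3 it was 0.15 (edgeR adjusted p = 0.0429, SE 0.057), a call lost in 8 of 14 alternatives, whose adjusted p ran from 0.0222 to 0.318. Leaving out replicate 1, 2 or 3 of Cond 1 gave 0.122, 0.0555 and 0.0990, and leaving out replicate 1 of Cond 3 gave a log2 fold change of 0.080 with the adjusted p of 0.318 from edgeR. Gene-level counts do not separate the splice forms. FGFR2 (ENSG00000066468) spans chr10:121478332-121598458 and is read from the minus strand.

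FGFR4, the receptor for FGF19 in the liver, had the smallest change among the receptor kinases in Cond 2. Its TPM was 84.0, 88.5 and 80.8 in Cond 1, 95.8, 83.2 and 93.6 in Cond 2, and 99.3, 95.9 and 98.7 in Cond 3. Cond 2 overlapped Cond 1, whereas Cond 3 lay above both. The log2 fold change in Cond 2 was 0.021 (95% interval -0.12 to 0.16, edgeR adjusted p = 0.880), and its sign changed without replicate 3 of Cond 1 (-0.00098) or replicate 1 of Cond 2 (-0.040). In Cond 3 it was 0.19 (edgeR adjusted p = 0.0340, SE 0.068), a call lost in 7 of 14 alternatives, with adjusted p from 0.0145 to 0.120. Leaving out replicate 1 or 3 of Cond 1 gave an adjusted p of 0.0983 and 0.120, and leaving out replicate 1, 2 or 3 of Cond 3 gave 0.0846, 0.0538 and 0.0936. FGFR4 (ENSG00000160867) spans chr5:177086905-177098144 and is read from the plus strand.

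FGFRL1, a receptor that binds FGF ligands but lacks the kinase domain, rose in Cond 3. It had 24.5, 25.6 and 25.6 TPM in Cond 1, 27.3, 24.4 and 27.4 in Cond 2, and 35.9, 35.0 and 35.5 in Cond 3. Libraries of Cond 3 were tightly grouped and lay above all others, whereas Cond 2 overlapped Cond 1. The log2 fold change in Cond 3 was 0.46 (edgeR adjusted p = 0.000303, SE 0.091), and the call held in all 14 alternatives. In Cond 2 it was -0.024 (95% interval -0.21 to 0.17, edgeR adjusted p = 0.900), with positive values of 0.059 by limma on log2(TPM + 1) and 0.037 without replicate 2 of Cond 2, so that no direction can be given. FGFRL1 (ENSG00000127418) spans chr4:1009936-1026898 and is read from the plus strand.

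**Figure D2:**
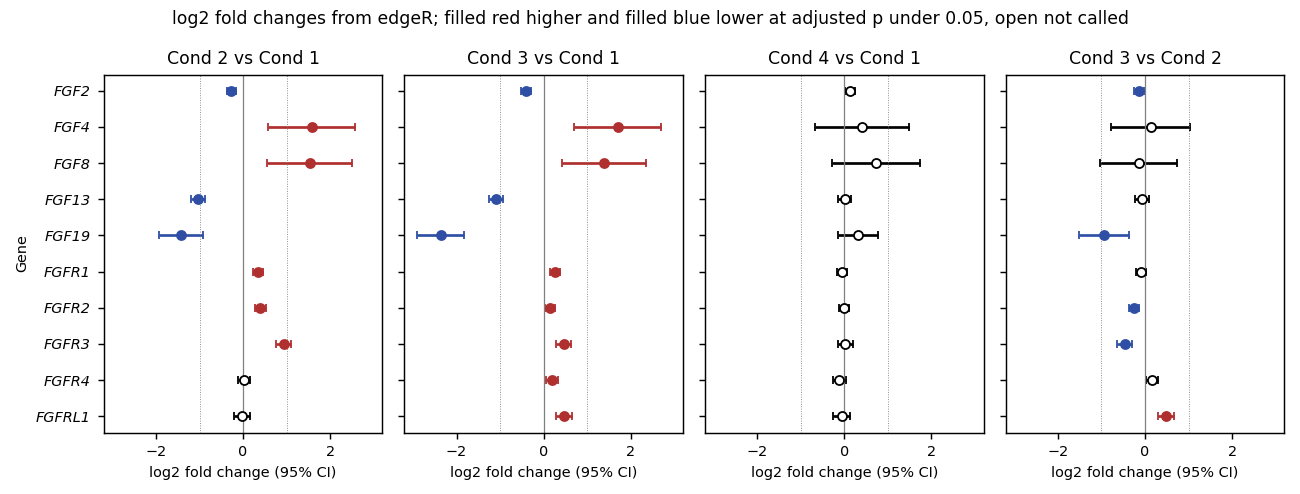
The horizontal axes give log2 fold changes with their 95% confidence intervals from edgeR for the 10 genes (vertical axis) in 4 comparisons, with filled red points higher, filled blue points lower and open points not called at an adjusted p under 0.05, and dotted lines at a fold of 2. The Cond 2 and Cond 3 panels both show FGF2, FGF13 and FGF19 in blue, the Cond 4 panel has only open points, and the wide intervals belong to FGF4 and FGF8.

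Cond 4 was not distinguishable from Cond 1 for any of the 10 genes. None passed in edgeR, none in DESeq2 and none in the other alternatives, against 0.0282% of all genes, 0.0225% as higher, 0.00563% as lower and 0.0169% with a fold above 2. FGF2 was the 1 gene with an unadjusted p under 0.05, a level reached by 1102 of all genes. Its TPM was 160.2, 169 and 160.1 in Cond 4, above all libraries of Cond 1, with a log2 fold change of 0.14 (95% interval 0.026 to 0.25, edgeR adjusted p = 0.790).

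The receptors of Cond 4 lay close to those of Cond 1. FGFR3 had 147, 150.5 and 167 TPM and a log2 fold change of 0.024 (95% interval -0.15 to 0.20, edgeR adjusted p = 0.986). FGFR1 had 246, 234 and 244 TPM, FGFR2 103, 107 and 99.6, FGFR4 72.9, 78.4 and 84.4, and FGFRL1 24.2, 21.9 and 27.3, each overlapping Cond 1. Among the ligands, FGF19 had 16.5, 19.9 and 22.7 TPM, with a log2 fold change of 0.31 (95% interval -0.15 to 0.78, edgeR adjusted p = 0.885). FGF13 had 11.96, 13.8 and 13.6 TPM and FGF4 had 0.868, 0.369 and 1.11. FGF8 was spread from 1.21 and 2.36 to 6.06 TPM, with a log2 fold change of 0.72 (95% interval -0.29 to 1.73, edgeR adjusted p = 0.876), which became -0.13 without the highest library, replicate 3.

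Cond 3 was set against Cond 2 to compare the serum-based medium with the heated one. The heated medium was given from an earlier day of culture than the serum, so that the medium and the length of exposure cannot be told apart. Of the 10 genes, 5 passed, 1 higher and 4 lower in Cond 3, where 38.2% of all genes passed, 19% as higher and 19.2% as lower. None of the 10 also had a fold above 2, against 8.77% of all genes. The count of 0 became 1, FGF19, without replicate 1 or 2 of Cond 2 or replicate 1 of Cond 3.

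Lower in Cond 3 than in Cond 2 were FGFR3 (log2 fold change -0.47, edgeR adjusted p = 9.81e-05, SE 0.083), FGFR2 (-0.25, edgeR adjusted p = 0.00138, SE 0.057), FGF19 and FGF2. FGFRL1 was the gene that was higher, with a log2 fold change of 0.49 (edgeR adjusted p = 0.000177, SE 0.091). The FGF19 difference of -0.95 (edgeR adjusted p = 0.00934, SE 0.28) rested on replicate 3 of Cond 2, the highest of its group, without which it was -0.54 with an adjusted p of 0.128. Over all alternatives its adjusted p ran from 0.00100 to 0.128. The FGF2 difference of -0.14 (edgeR adjusted p = 0.0384, SE 0.053) kept its call in 6 of 14 alternatives, with adjusted p from 0.0135 to 0.162. It was lost without replicate 1 (0.0651) or 2 (0.142) of Cond 2 and without replicate 1 (0.162) or 3 (0.115) of Cond 3.

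The other 5 genes did not pass between the media. FGFR4 had a log2 fold change of 0.17 (edgeR adjusted p = 0.0592), which passed in 4 of 14 alternatives, with adjusted p from 0.0135 without replicate 1 of Cond 2 to 0.369. FGFR1 had -0.092 (95% interval -0.20 to 0.019, edgeR adjusted p = 0.188), and passed without replicate 3 of Cond 2 (0.0452) or replicate 1 of Cond 3 (0.0434), within a range of 0.0434 to 0.623. FGF13 had -0.068 (95% interval -0.23 to 0.097, edgeR adjusted p = 0.544). FGF4 and FGF8 had wide intervals of -0.77 to 1.03 and -1.03 to 0.73.

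The receptor pool as a whole held more transcripts in both media and shifted towards FGFR3 in Cond 2. The summed TPM of FGFR1 to FGFR4 was 587 ± 2.65 in Cond 1 and 578 ± 14.5 in Cond 4, against 874 ± 54.6 in Cond 2 and 728 ± 46.4 in Cond 3 (SD, n = 3 each). FGFR3 made up 25.7% ± 1.21 of this sum in Cond 1, 34.7% ± 3.01 in Cond 2, 29.1% ± 0.307 in Cond 3 and 26.8% ± 1.12 in Cond 4 (SD, n = 3 each). The share of FGFR4 was 14.4% ± 0.723 in Cond 1 and 10.4% ± 0.947 in Cond 2, and that of FGFR1 was 42.3% ± 1.08 and 38.3% ± 1.04. These shares are a description with no test, since a rise of 1 receptor lowers the shares of the others. Their sizes also depend on the gene lengths used for TPM.

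The pool of secreted ligands among the 10 genes moved the other way and stayed dominated by FGF2. Ligands outside the 10 were not counted in it, such as FGF21 at 13.5 TPM and FGF22 at 5.10 TPM in Cond 1. The summed TPM of FGF2, FGF4, FGF8 and FGF19 was 165 ± 5.08 in Cond 1 and 187 ± 7.01 in Cond 4, against 144 ± 3.94 in Cond 2 and 123 ± 4.76 in Cond 3 (SD, n = 3 each). FGF2 made up between 87.4% and 91.6% of it in the condition means. FGF19 made up 9.51% ± 0.622 in Cond 1, 4.40% ± 2.05 in Cond 2 and 2.52% ± 0.439 in Cond 3, whereas FGF8 made up 1.17% ± 0.667, 4.15% ± 0.623 and 4.23% ± 0.961 (SD, n = 3 each).

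**Figure D3:**
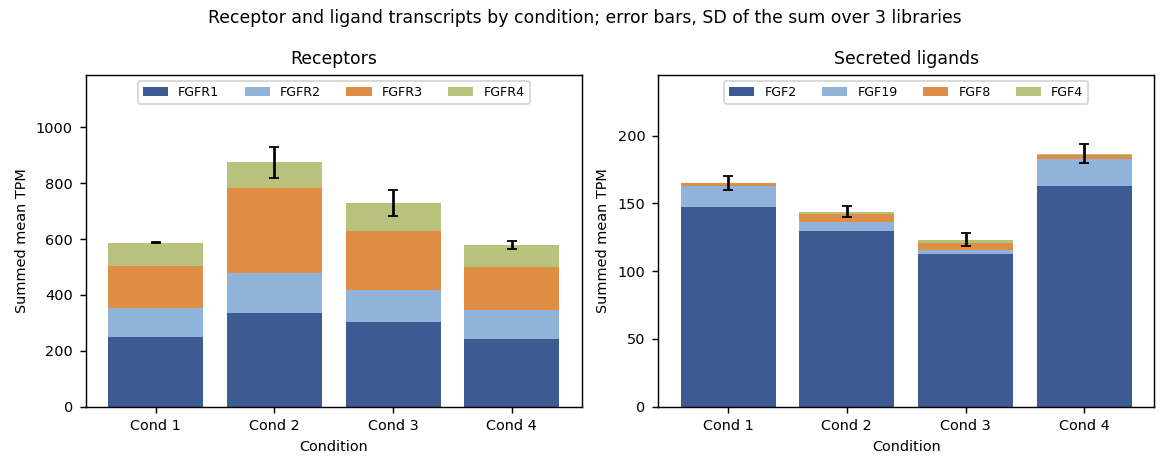
Stacked bars give the mean TPM of the receptors FGFR1 to FGFR4 (left) and of the secreted ligands FGF2, FGF19, FGF8 and FGF4 (right) in each condition, with the SD of the sum over 3 libraries as error bars. The receptor sum was highest in Cond 2 at 874 TPM and the ligand sum lowest in Cond 3 at 123 TPM, with FGFR3 widening in Cond 2 and FGF19 narrowing in Cond 2 and Cond 3.

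Other genes of the pathway were taken from 8 lists of 90 genes, of which 75 were tested. In Cond 2, 18 were upregulated and 17 downregulated, in Cond 3 14 and 30, and in Cond 3 against Cond 2 14 and 34. The share called was 46.7% of those tested in Cond 2, 58.7% in Cond 3 and 64.0% between the media, where 20.9%, 38.4% and 38.2% of all genes were called. The lists were not tested as sets. They too were chosen with earlier results of these data known, so their shares beside those of all genes are a description only. In Cond 4 none passed in edgeR, and DESeq2 called GPC1 alone, at -0.29 on the log2 scale (DESeq2 adjusted p = 0.0175).

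Downstream of the receptors, most listed genes fell in Cond 3. Of 12 feedback inhibitors tested, 6 fell and 2 rose in Cond 2 (median log2 fold change -0.22), and 9 fell and none rose in Cond 3 (median -0.90). Over all genes 10.1% were lower and 10.8% higher in Cond 2, and 18.8% and 19.5% in Cond 3. Of 10 target genes, 3 fell and 2 rose in Cond 2 (median -0.00026), and 8 fell and none rose in Cond 3 (median -1.12). The median over all genes tested was 0.00018 in Cond 2 and -0.0064 in Cond 3. SPRY4, a Sprouty inhibitor of RAS signalling, fell by 0.94 in Cond 2 and by 2.37 in Cond 3 on the log2 scale, and ETV4, an ETS factor, by 0.76 and by 1.92, with adjusted p-values from edgeR of at most 1.33e-06 for both. In Cond 3 the receptor transcripts were higher and transcripts of the listed inhibitors and targets lower in the same libraries.

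Upstream, the lists had members moving both ways. Among ligands outside the 10, 7 of 14 were tested. FGF1, a ligand of all FGF receptors, rose from 0.637 TPM in Cond 1 to 1.41 in Cond 2 (log2 fold change 1.07, edgeR adjusted p = 0.0380) and 2.16 in Cond 3 (1.74, edgeR adjusted p = 0.000434). FGF21, an endocrine ligand of the same subfamily as FGF19, fell from 13.5 TPM to 8.45 in Cond 2 (-0.76, edgeR adjusted p = 0.0472) and to 1.68 in Cond 3 (-3.01, edgeR adjusted p = 1.35e-07). FGF5, FGF7, FGF10 and FGF17, each under 1 TPM on average in every condition, were not among those tested.

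At the cell surface, 5 coreceptors and binding proteins were tested, of which 2 rose in Cond 2 and 2 rose and 1 fell in Cond 3. Beside these counts, 20.9% of all genes were called in Cond 2 and 38.4% in Cond 3. A list of 5 genes is too short to set its counts apart from those shares. FLRT3, a membrane protein that binds FGF receptors, rose from 1.12 ± 0.056 TPM in Cond 1 to 14.3 ± 0.289 in Cond 2 (SD, n = 3 each), a log2 fold change of 3.59 (edgeR adjusted p = 6.85e-12), and to 1.97 TPM in Cond 3 (0.79, edgeR adjusted p = 0.00674). FGFBP3, a carrier that binds secreted FGFs, rose in Cond 2 (0.88, edgeR adjusted p = 1.32e-06) and fell in Cond 3 (-0.34, edgeR adjusted p = 0.0160).

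Heparan sulfate genes were split. Of 10 carriers tested, 5 rose and 3 fell in Cond 2 and 4 rose and 3 fell in Cond 3, or 80.0% and 70.0% called. GPC3, a glypican, rose from 433 ± 11.4 to 1590.0 ± 51.5 TPM in Cond 2 (SD, n = 3 each), a log2 fold change of 1.79 (edgeR adjusted p = 4.61e-15), and GPC6 fell by 1.11 in Cond 2 and by 0.78 in Cond 3 (edgeR adjusted p = 8.04e-09 and 6.94e-07). Of 12 enzymes, 2 rose and 3 fell in Cond 2 and 3 rose and 3 fell in Cond 3, or 41.7% and 50.0% beside 20.9% and 38.4% of all genes. SULF1, which removes sulfate groups from heparan sulfate outside the cell, fell by 2.66 and by 1.79 (edgeR adjusted p = 8.21e-08 and 4.01e-06), from a mean of 3.11 TPM in Cond 1.

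Of 18 signal transducers, 4 rose and 1 fell in Cond 2 and 4 rose and 4 fell in Cond 3, with none past a fold of 2. The shares called, 27.8% and 44.4%, were close to the 20.9% and 38.4% of all genes, so these counts show nothing particular to the transducers. FRS2, the docking adaptor of the receptors, rose by a log2 fold change of 0.67 in Cond 2 (edgeR adjusted p = 7.35e-06). SHC1, another adaptor, fell by 0.41 in Cond 2 and by 0.72 in Cond 3 (edgeR adjusted p = 1.29e-05 and 1.99e-09).

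**Figure D4:**
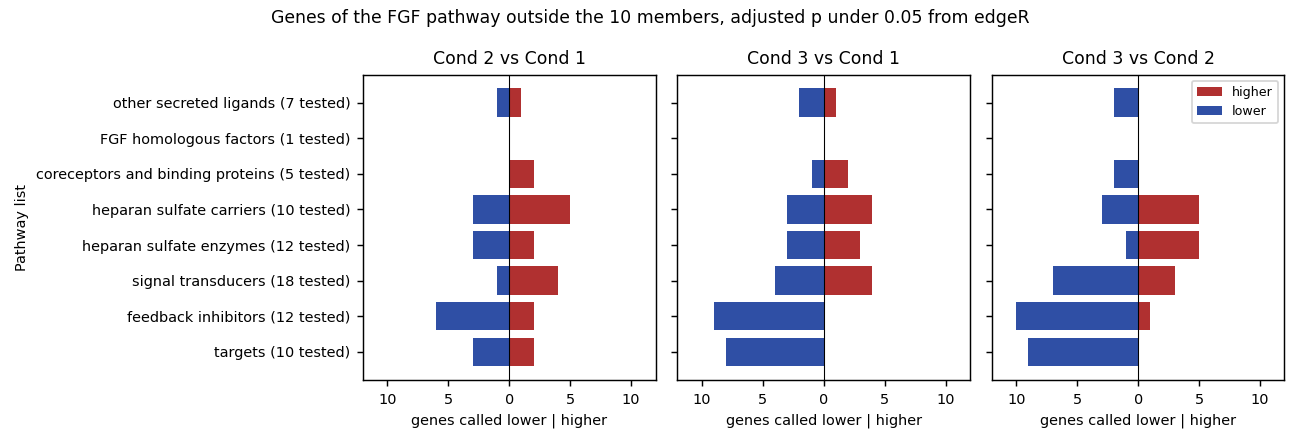
Bars count the genes of each pathway list (vertical axis, with the number tested) that were higher (red, right) or lower (blue, left) at an adjusted p under 0.05 from edgeR in 3 comparisons. In Cond 3, 9 of 12 feedback inhibitors and 8 of 10 targets were lower and none higher, whereas the heparan sulfate lists had bars on both sides.

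Among the 10 genes, FGF19 of the secreted ligands and FGFR3 of the receptors had the widest range of condition means, 2.34 and 1.00 on the scale of log2(TPM + 1). Over the 12 libraries and 17623 genes with a mean of at least 1 TPM, the patterns most like FGFR3 were those of FRZB, a secreted WNT antagonist (Pearson r = 0.990), OTX2, a transcription factor of the anterior neural plate (0.981), and PKDCC, a secreted kinase (0.980). FRZB, picked by this likeness, had a mean of 4.36 TPM in Cond 1, 88.2 in Cond 2 and 20.2 in Cond 3. Most like FGF19 were IL17RD, an inhibitor of FGF signalling and itself on the feedback list (0.962), GFPT2, an enzyme of hexosamine synthesis (0.962), and TES, a focal adhesion protein (0.961). IL17RD had a mean of 16.9 TPM in Cond 1, 13.0 in Cond 2, 9.77 in Cond 3 and 19.2 in Cond 4. Because the libraries form conditions and each correlation shares their depth, these values describe likeness and carry no p.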

How the data were processed

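RNA-Seq libraries of 201B7 iPSCs (12, in 4 conditions) were made with a poly(A) and strand-specific kit. Per the labels and methods, reads were trimmed with cutadapt 4.1 and fastp 0.20.1, aligned to GRCh38 with HISAT2 2.1.0 and counted on genes with featureCounts. The authors deposited unnormalized whole-number read counts of each gene. The deposited TPM values, made by the authors, are counts divided by gene length and scaled per library (largest relative deviation on recomputing 1.79e-14). Of 58580 lines of the count table, 5 held no complete gene and were dropped.

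The main test was edgeR's (version 4.0.16, R 4.3.3) quasi-likelihood test after TMM scaling, in 1 fit over all libraries, with Benjamini-Hochberg adjustment over the 17747 genes left by edgeR's low-count filter. A gene was called at an adjusted p under 0.05. The study's own test was limma on TPM, which was kept as an alternative. An exact two-sided permutation test of 3 libraries against 3 cannot give a p below 0.1 and was not used for calls. Alternatives were upper-quartile normalization, DESeq2 1.42.0, all genes without a filter, only genes that reached 1 TPM in all libraries, limma 3.58.1 on log2(TPM + 1) and log2(TPM + 0.1), a fit on the 6 libraries of a comparison, a block for the replicate number, and each replicate left out.

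Coordinates came from GENCODE release 44 and promoters from RefSeq. All 10 genes were named, with at most 3 genes per pathway list and comparison by size of change, the 3 genes most like the widest-ranging ligand and receptor, and genes overlapping a member. FGF3, FGF5, FGF7, FGF10, FGF12, FGF17, CCND1, LTO1, GPC1 and the cell type markers with values were named outside this rule after their values were seen. The members and lists were chosen with earlier results of these data known. The script was tested on simulated data with changes larger than those of the receptors, placed only in genes with many reads. That test therefore does not cover genes with few reads, such as FGF4 and FGF8, or small changes.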

Additional observations from a re-analysis of the deposited data

How the results depend on the processing

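Most fold changes of the 10 genes kept their direction and side of the threshold. Of those under other tools, filters or normalizations, 289 did so, 19 lost a call, 3 gained one and 5 changed sign. With single libraries left out, 198 did so, 24 lost a call, 3 gained one and 15 changed sign. The cause was not tested. FGF4 was not tested under the filter of 1 TPM in all libraries. FGF4, FGF8 and FGF19 had the fewest reads, 6 to 224 per library.

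The number of the 10 genes called in Cond 3 fell from 10 to 6 with limma on log2(TPM + 1) and to 6 on log2(TPM + 0.1). The number with a fold above 2 fell from 4 to 1 and 2 in Cond 2, and from 4 to 1 and 2 in Cond 3, with these pseudocounts. With single libraries left out it was 2 to 4 in Cond 2, and 0 to 1 for Cond 3 against Cond 2. For the pathway genes in Cond 4 the count of 0 became 1 with DESeq2.

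Signs changed for genes that passed no test. FGFRL1 in Cond 2 gave 0.059 and 0.061 with limma and -0.070 to 0.037 with single libraries left out, and FGFR4 there -0.040 to 0.089. In Cond 4, FGFR2 gave 0.0027 with limma at either pseudocount, and the ranges with single libraries left out were -0.13 to 1.30 for FGF8, -0.034 to 0.069 for FGF13, -0.041 to 0.017 for FGFR2, -0.032 to 0.074 for FGFR3 and -0.15 to 0.014 for FGFRL1. FGF4 in Cond 3 against Cond 2 gave -0.017 with limma on log2(TPM + 0.1) and -0.36 to 0.38 with single libraries left out.

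Over all genes, those with a fold above 2 were 770 in Cond 2, 1449 in Cond 3 and 1557 between them, against 405, 663 and 763 with the TPM filter and 428, 787 and 903 with limma on log2(TPM + 1). In Cond 4 the 5 genes called became 17 with DESeq2, 52 with no filter, 8 and 10 with limma and 8 in the 6 libraries alone, and the 3 with a fold above 2 became 14 with no filter and 8 with limma on log2(TPM + 0.1).

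Libraries with the same replicate number shared little: of 18 such pairs in different conditions, 0 had deviations correlated above 0.1. Their values ran from -0.013 to 0.038, and those of pairs with different numbers from -0.069 to 0.061. Of 12 libraries, 9 correlated best with their own number, and whether this marks a weak pairing was not tested. With the replicate block, 8 of the 10 genes were called in Cond 2, 10 in Cond 3, 0 in Cond 4 and 5 in Cond 3 against Cond 2, the same counts as without it, and 3750 of all genes were called in Cond 2 against 3701.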
